A study of Arabidopsis thaliana with 114 samples.

Results

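The genes described here are 8 Arabidopsis thaliana genes that mark low sugar supply or that break down branched-chain amino acids, out of 28712 gene identifiers counted in each library. They were chosen by name and matched by AGI identifier: DIN1 (AT4G35770, also SEN1), DIN2 (AT3G60140), DIN10 (AT5G20250), BCAT2 (AT1G10070), MCCA (AT1G03090), MCCB (AT4G34030), IVD (AT3G45300) and ETFQO (AT2G43400). The choice was made with earlier results of these data known. Counts of the 8 genes set beside shares of all genes are therefore descriptions, not independent tests of the set. All 8 were found in the files and all 8 passed the filter on low counts in both organs. The series holds 114 RNA sequencing libraries of shoots and roots of seedlings grown with 1% sucrose and 1 mM KNO3. At time 0 nothing was added, and from then on seedlings received either N, which was 20 mM KNO3 with 20 mM NH4NO3 and so 60 mM nitrogen, or 20 mM KCl as the control. Libraries were made at time 0 and at 5, 10, 15, 20, 30, 45, 60, 90 and 120 after supply, with 3 per organ, treatment and time, and the time labels, which carry no unit, are read here as minutes. No accession, genotype or age is given in the sources used here. Where a sample tag mentions only KNO3 for N, the protocol text was followed. Nitrate, ammonium, chloride and total salt cannot be told apart in this design, so N names the whole supply.

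Plants that run short of sugar, in prolonged darkness for example, turn to proteins and lipids as fuel. The protein kinase SnRK1 and bZIP transcription factors of the C and S1 groups raise the transcripts of many genes of this switch, among them dark-inducible (DIN) genes and genes of amino acid breakdown, and sugars repress them. In the leucine branch of this breakdown a branched-chain aminotransferase (BCAT) removes the amino group, isovaleryl-CoA dehydrogenase (IVD) oxidises the resulting acyl-CoA in mitochondria, and 3-methylcrotonyl-CoA carboxylase, built of a biotin-carrying alpha subunit (MCCA) and a beta subunit (MCCB), takes the next step. Electrons from IVD pass through the electron transfer flavoprotein (ETF) and its ubiquinone oxidoreductase (ETFQO) into the respiratory chain. DIN1 encodes a rhodanese-like protein linked to senescence, DIN2 a beta-glucosidase, and DIN10 a protein of the raffinose synthase family.

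The 300 bases upstream of the annotated start were read for each of the 8 genes from the RefSeq assembly TAIR10.1 and searched on both strands for 4 sequences: the G-box CACGTG, the ACGT core around which bZIP factors are known to bind, ACTCAT and TATCCA. The G-box overlaps the ACGT core by construction. The ACGT core was in the windows of 4 of the 8 genes (DIN10, BCAT2, MCCB and ETFQO), against 49% of 27443 windows of protein-coding genes searched in the same way. The G-box was in 0 of the 8 windows, against 7.09% of all windows. For ACTCAT the count was 0 of 8, against 14.8% of all windows. The count was also 0 of 8 for TATCCA, against 16.2% of all windows. Shown here are DIN10, which had the largest N effect of the 8 genes in the root at 120 min and holds the core at 50 and at 43 bases before the start, BCAT2, which was called in the shoot and not in the root and holds it at 166, and DIN1, which differed most between the organs and holds none in this window. Capitals mark the ACGT core, and each window is written 5′ to 3′ on the strand of its gene. A match is a run of letters and was not tested as a site.
DIN10 (chr5:6833264-6833563, plus strand): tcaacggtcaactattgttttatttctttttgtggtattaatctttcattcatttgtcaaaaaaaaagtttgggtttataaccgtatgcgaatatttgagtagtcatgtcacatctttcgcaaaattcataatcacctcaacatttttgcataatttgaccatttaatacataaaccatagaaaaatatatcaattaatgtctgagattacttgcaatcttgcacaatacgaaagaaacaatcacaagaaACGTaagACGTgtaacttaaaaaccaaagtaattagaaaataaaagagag
BCAT2 (chr1:3287787-3288086, plus strand): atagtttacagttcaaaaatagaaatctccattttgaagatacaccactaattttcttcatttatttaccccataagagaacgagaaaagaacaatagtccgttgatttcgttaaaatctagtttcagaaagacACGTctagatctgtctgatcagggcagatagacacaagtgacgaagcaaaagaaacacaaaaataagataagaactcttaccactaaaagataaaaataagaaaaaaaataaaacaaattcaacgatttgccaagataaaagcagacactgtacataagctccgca
DIN1 (chr4:16944578-16944877, plus strand): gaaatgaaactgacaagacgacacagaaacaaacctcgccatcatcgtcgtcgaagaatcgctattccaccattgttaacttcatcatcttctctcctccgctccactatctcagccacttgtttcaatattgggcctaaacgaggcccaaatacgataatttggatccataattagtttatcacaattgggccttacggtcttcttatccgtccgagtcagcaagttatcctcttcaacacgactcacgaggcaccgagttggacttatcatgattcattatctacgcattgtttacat

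Gene counts per library ranged from 5710272 to 43570824 in 56 shoot libraries and from 13878732 to 143269564 in 57 root libraries. The shoot library of KCl replicate 2 at 90 min holds 1302 counts and was left out, so that the shoot KCl group at 90 min has n = 2. Whether replicates came from separate cultures is not given in the labels, so p-values measure only the spread between these samples, which may be technical. At time 0 all 10 shoot markers were higher in the shoot and 8 of 10 root markers were higher in the root, the exceptions being SCR and ESB1. Root replicate 1 at time 0 carries the word shoot in its source name and the word root in its title and organ tag, and it was used as root. Its summed shoot markers lay, with those of the other 2 root libraries of time 0, between 66.5 and 75.1 CPM (normalised read counts scaled to TMM library size), against 4068 to 6294 CPM in the shoot. In the root, the libraries of 10 and 15 min stood apart in both arms: KCl differed from time 0 in 72.9% and 68.7% of genes there and in 20.1% at 20 min.

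Before treatment the organs differed in which of these genes they expressed most. Levels are compared between genes as CPM per kb of exon, and ± is the SD (n = 3). In the shoot BCAT2 led with 24.4 ± 2.86 CPM per kb, followed by DIN2 with 12.01 ± 14.1, MCCB with 9.49 ± 0.799, IVD with 8.43 ± 0.852, DIN10 with 6.32 ± 1.83, MCCA with 5.31 ± 0.0888, ETFQO with 3.69 ± 0.103 and DIN1 with 0.977 ± 0.125. DIN2 ranged from 2.30 to 28.2 CPM per kb and so had no fixed place in this order, and the ranges of MCCB and IVD, of IVD and DIN10, and of DIN10 and MCCA overlapped. In the root IVD led with 26.3 ± 4.66 CPM per kb, ahead of DIN10 with 11.98 ± 6.74, MCCB with 11.5 ± 0.787, ETFQO with 8.49 ± 0.538, MCCA with 7.07 ± 0.240, DIN2 with 3.11 ± 0.696, BCAT2 with 2.20 ± 0.647 and DIN1 with 0.867 ± 0.321. The range of DIN10 took in those of MCCB and ETFQO, and the ranges of DIN2 and BCAT2 overlapped.

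Between the organs at time 0, 7 of the 8 genes passed the test, as did 79.5% of all genes. BCAT2 had 45.7, 45.5 and 36.9 CPM in the shoot and 4.61, 2.55 and 4.40 CPM in the root, a shoot minus root log2 difference of 3.47 ± 0.22 (SE; adjusted p = 5.68e-25). All shoot libraries lay above all root libraries. IVD was lower in the shoot, with a log2 difference of -1.64 ± 0.19, as were ETFQO with -1.20 ± 0.16 and MCCA with -0.41 ± 0.15, and none of the 3 genes had overlapping libraries. All 4 of these calls held whichever time 0 library was left out. The median of all genes in this comparison was -0.16. DIN1 did not pass, at 0.16 with a 95% interval from -0.97 to 1.30. DIN2 was called higher in the shoot at 1.95, but rested on shoot replicate 2, without which the log2 difference was 0.29 (adjusted p = 0.718). DIN10 was called lower in the shoot at -0.92, and at -0.36 without root replicate 2 (adjusted p = 0.360), -0.74 without shoot replicate 3 (0.0706) and -0.88 in a fit of the time 0 libraries alone (0.0618). MCCB was called at -0.27, and the call was lost at -0.23 without root replicate 1, at -0.28 without root replicate 3, at -0.23 without shoot replicate 1, at -0.19 with DESeq2, at -0.19 with RLE size factors, at -0.21 with the nearly empty library kept, at -0.23 with every gene of at least 1 count and at -0.22 in a fit of the time 0 libraries alone.

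In the shoot the log2 difference of N minus KCl was below 0 for all 8 genes at 45, 60 and 90 min. At 120 min it was below 0 for 6 of them, with DIN2 and DIN10 above 0. In the root 6 of the 8 were called higher at 90 and at 120 min. In the shoot all 8 genes passed the test of N against KCl at any time, all with a lower level at their time of smallest p, against 47.4% of all genes called and 23.7% called lower. That count was 4 without shoot KCl replicate 2 and at most 7 without any other replicate. For MCCA in the shoot the time of smallest p was 10 min, when it was not called at that time alone (adjusted p = 0.195). In the root 6 of the 8 passed the test at any time, all higher, against 61% of all genes called and 29.3% called higher, and BCAT2 and ETFQO did not. By time, 5, 2, 6 and 5 genes were called lower in the shoot at 45, 60, 90 and 120 min, when 12.6%, 12.6%, 18.6% and 17.8% of all genes were called lower. In the root 1, 1, 1, 3, 6 and 6 genes were called higher at 15, 30, 45, 60, 90 and 120 min, when 8.26%, 3.31%, 7.78%, 14.5%, 8.27% and 18.6% of all genes were called higher. The median log2 difference over the 8 genes was -0.67 in the shoot and 1.00 in the root at 90 min, while over all genes it was -0.00463 and -0.0117. In these organ samples, fewer cells of a type and less RNA per cell cannot be told apart.

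**Figure D1:**
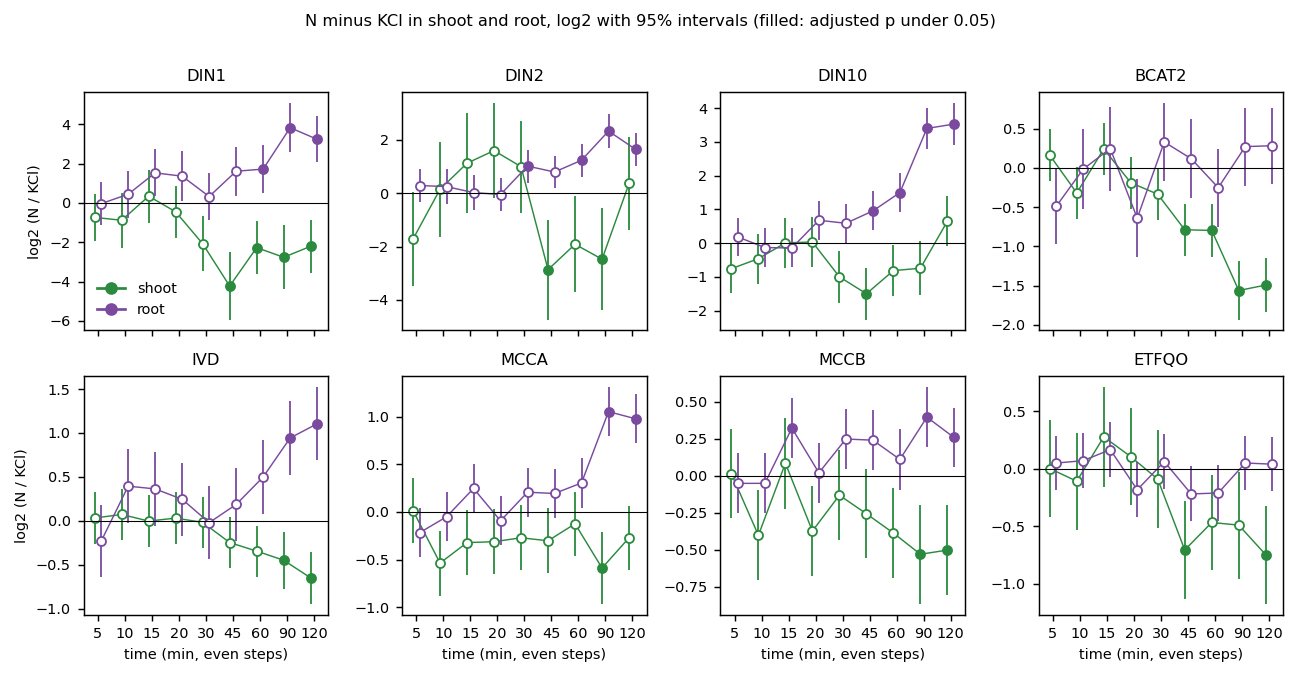
Log2 difference of N minus KCl for each of the 8 genes against time after supply in min (even steps, not to scale), in the shoot (green) and the root (purple), with 95% intervals, and filled points where the adjusted p was under 0.05. From 90 min on the shoot points lie below 0 and the root points above 0 for DIN1, BCAT2, MCCA, MCCB, IVD and ETFQO. The root points of BCAT2 and ETFQO were not called.

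No gene of the 8 was called in the shoot from 5 to 30 min with edgeR, where between 0 and 2 of them had an unadjusted p under 0.05 at each time and DESeq2 called DIN1 at 30 min. Of all genes, 0.0574%, 0.89%, 1.77%, 3.11% and 6.72% were called in the shoot at 5, 10, 15, 20 and 30 min. In the root none of the 8 was called at 5 and 10 min with edgeR, with 0 at an unadjusted p under 0.05 and 0 by DESeq2, when 1.97% and 17.4% of all genes were called. At 20 min in the root none was called by either tool and 3 had an unadjusted p under 0.05, when 3.76% of all genes were called.

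Among the dark-inducible genes, DIN1 moved in opposite directions. In the shoot at 45 min the N libraries held 0, 0.239 and 0.136 CPM and the KCl libraries 0.365, 4.51 and 2.098 CPM. At 90 min shoot N held 0.275, 0.289 and 0.190 CPM against 1.34 and 2.26 CPM with KCl, and at 120 min 0.705, 1.06 and 0.214 CPM against 4.60, 1.89 and 2.44 CPM. At all 3 times every N library lay below every KCl library. The log2 differences at 45, 60, 90 and 120 min were -4.23 ± 0.87 (adjusted p = 0.000281), -2.27 ± 0.69 (0.0115), -2.77 ± 0.83 (0.00733) and -2.21 ± 0.69 (0.00935). The gene is sparse, with 6 to 80 counts in the shoot control libraries, 0 to 3 in the N libraries of 45 min and 2 to 5 in those of 90 min, so the size of its fitted fold depends on how such low counts are treated. In fits that left 1 replicate of 1 arm out at all times, its call was lost at 60 min without KCl replicate 1 (-1.65), N replicate 1 (-2.09) or N replicate 2 (-1.87), at 90 min without KCl replicate 3 (-2.35) and at 120 min without N replicate 3 (-1.73), while the 45 min call and the call at any time held in all 6 fits.

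In the root DIN1 rose. At 90 min the N libraries held 6.01, 7.97 and 6.56 CPM and the KCl libraries 0.484, 0.236 and 0.718 CPM, and at 120 min N held 7.45, 13.6 and 9.53 CPM against 1.97, 0.883 and 0.430 CPM. No libraries overlapped at either time, and time 0 had held 0.732, 1.55 and 0.978 CPM. The log2 difference was 3.82 ± 0.64 at 90 min (adjusted p = 1.21e-05) and 3.23 ± 0.60 at 120 min (4.29e-05). At 60 min it was called at 1.72 ± 0.62 (0.0333) with overlapping libraries, and the call was lost without root KCl replicate 1 (1.33), KCl replicate 3 (1.30) or N replicate 3 (0.87) and in a fit of these libraries alone (adjusted p = 0.158).

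DIN10 showed the largest N effect of the 8 in the root at 120 min. The N libraries then held 392, 550 and 415 CPM and the KCl libraries 57.0, 31.6 and 29.0 CPM, and at 90 min N held 442, 522 and 278 CPM against 40.4, 32.5 and 44.9 CPM. Every N library was far above every control library of the root, which over all 30 of them ranged from 21.6 to 60.6 CPM. The log2 difference grew from 0.95 ± 0.29 at 45 min (adjusted p = 0.0217) to 1.496 ± 0.30 at 60 min (0.000220), 3.40 ± 0.32 at 90 min (1.45e-11) and 3.53 ± 0.32 at 120 min (9.22e-12), the last an 11.5-fold difference. The 45 min call was lost without root KCl replicate 2 (0.81), KCl replicate 3 (0.83), N replicate 1 (0.87) or N replicate 2 (1.00).

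In the shoot DIN10 was called lower at 45 min only. At 45 min N held 14.3, 12.2 and 3.05 CPM and KCl 17.6, 42.7 and 23.5 CPM, without overlap, a log2 difference of -1.50 ± 0.39 (adjusted p = 0.00369). At 90 min N held 18.8, 28.9 and 17.998 CPM against 37.7 and 36.1 CPM, and at 120 min 35.6, 35.7 and 28.5 CPM against 29.4, 13.6 and 20.6 CPM, and neither passed (-0.75 and 0.65, adjusted p = 0.156 and 0.179). The N libraries lay below the KCl libraries at 90 min and overlapped them at 120 min. The 45 min call was lost without shoot KCl replicate 2 (-1.06) or N replicate 3 (-1.07) and with a fit of these 2 groups alone (adjusted p = 0.0575), and the call at any time was lost without KCl replicate 2 (adjusted p = 0.0710).

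**Figure D2:**
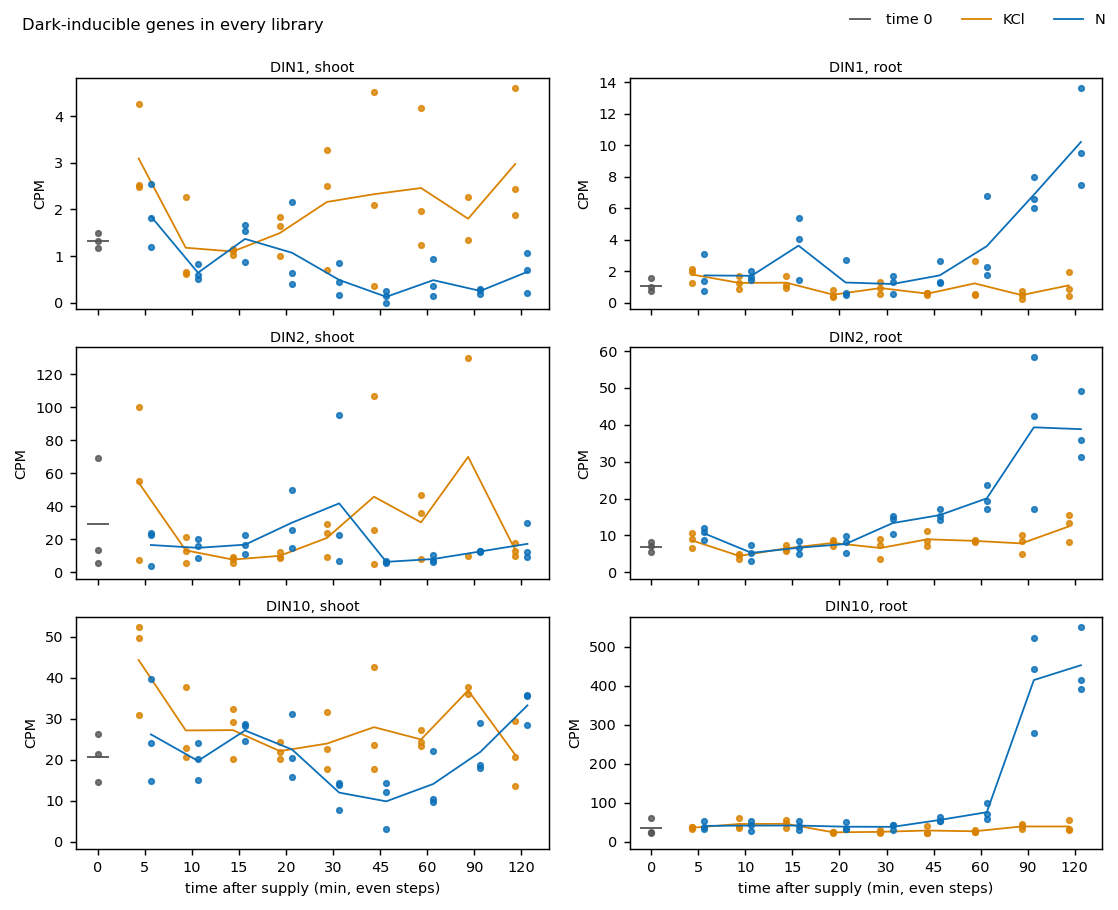
CPM of DIN1, DIN2 and DIN10 in every library against time after supply in min (even steps, not to scale), shoot on the left and root on the right, for time 0 (grey), KCl (orange) and N (blue), with lines through the group means. In the root at 120 min the 3 N libraries of DIN10 lie between 392 and 550 CPM and the 3 KCl libraries between 29.0 and 57.0 CPM.

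DIN2 rose in the root. At 90 min N held 58.3, 17.2 and 42.4 CPM and KCl 4.94, 8.42 and 10.095 CPM, and at 120 min N held 31.4, 49.2 and 35.9 CPM against 15.5, 13.4 and 8.33 CPM. All N libraries lay above all KCl libraries at 60, 90 and 120 min, with log2 differences of 1.24 ± 0.32 (adjusted p = 0.00326), 2.33 ± 0.32 (3.05e-07) and 1.65 ± 0.31 (5.90e-05). At 30 min it was called at 1.02 ± 0.32 (0.0455), and that call was lost without root KCl replicate 1 (1.10), KCl replicate 3 (0.72), N replicate 2 (0.97) or N replicate 3 (0.91) and in a fit of these libraries alone (adjusted p = 0.133).

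The shoot values of DIN2 differed widely within groups. At 15 and 20 min every N library lay above every KCl library, and neither time was called. The log2 differences there were 1.13 ± 0.96 (adjusted p = 0.699) and 1.60 ± 0.91 (0.454). At 30 min the difference was 0.99 ± 0.88 (0.633), with overlapping groups. At 45 min N held 5.76, 6.22 and 6.85 CPM and KCl 25.7, 107 and 4.92 CPM, and at 90 min N held 12.6, 12.8 and 12.4 CPM and KCl 130 and 9.70 CPM. The groups overlapped at both times: 1 KCl library lay below all 3 N libraries. It was called lower at 45 min with a log2 difference of -2.87 ± 0.96 (adjusted p = 0.0237) and at 90 min with -2.47 ± 0.97 (0.0412), and was 0.36 ± 0.89 at 120 min (0.788). Without KCl replicate 2 the 45 min value was -1.29 (0.411), and without KCl replicate 1 the 90 min value was 0.38 (0.878), in a fit where the single KCl library left at 90 min is assumed to vary like the other groups. Leaving out N replicate 1, 2 or 3 also ended the calls at 45 min (-2.80, -2.86 and -2.93) and 90 min (-2.48, -2.47 and -2.46), a fit of the 90 min libraries alone ended the latter (adjusted p = 0.0816), and the call at any time was lost without KCl replicate 2 (adjusted p = 0.0545) or N replicate 1 (0.0538), 2 (0.112) or 3 (0.0667).

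Of the branched-chain genes, BCAT2 changed most in the shoot. BCAT2 is known as a plastid member of the aminotransferase family, whose reaction runs in both directions. At 90 min N held 11.8, 18.8 and 18.1 CPM and KCl 54.8 and 40.8 CPM, and at 120 min N held 16.8, 15.3 and 16.4 CPM and KCl 40.0, 52.4 and 43.9 CPM. At 45, 60, 90 and 120 min every N library lay below every KCl library. The log2 differences were -0.79 ± 0.17 (adjusted p = 0.000527), -0.80 ± 0.17 (0.000327), -1.56 ± 0.19 (8.23e-09) and -1.49 ± 0.18 (2.59e-09), and none of the 4 calls was lost in the 6 fits that left out 1 replicate.

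In the root BCAT2 was low, from 1.70 to 5.16 CPM in the 30 control libraries, and did not pass the test at any time (adjusted p = 0.126). At 90 min N held 3.22, 3.70 and 2.94 CPM and KCl 3.14, 2.71 and 2.33 CPM, and the groups overlapped. The log2 difference of 0.27 had a 95% interval from -0.23 to 0.77, and that of 120 min, 0.28, an interval from -0.20 to 0.77.

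IVD was lower with N in the shoot and higher in the root. In the shoot at 120 min N held 13.5, 9.13 and 8.71 CPM and KCl 18.04, 14.7 and 16.3 CPM, and at 90 min N held 10.7, 11.7 and 10.7 CPM and KCl 14.2 and 15.9 CPM, without overlap at either time. The log2 differences were -0.65 ± 0.15 (adjusted p = 0.000516) at 120 min and -0.45 ± 0.17 (0.0288) at 90 min. In the root at 120 min N held 46.2, 71.3 and 64.2 CPM and KCl 33.8, 25.7 and 25.0 CPM, and at 90 min N held 37.5, 81.5 and 41.5 CPM and KCl 26.3, 29.5 and 27.9 CPM. These groups did not overlap either, with log2 differences of 1.10 ± 0.21 (7.42e-05) and 0.94 ± 0.21 (0.00102). The shoot call at 90 min was lost without KCl replicate 1 (-0.53), KCl replicate 3 (-0.37) or N replicate 2 (-0.48), the shoot call at any time without the same libraries (adjusted p = 0.0938, 0.0830 and 0.105), and the root call at 90 min without N replicate 2 (0.53).

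Both subunit genes of the carboxylase were called higher in the root. For MCCA in the root at 90 min N held 35.4, 47.9 and 32.7 CPM and KCl 19.1, 19.0 and 17.9 CPM, and at 120 min N held 35.3, 47.7 and 37.4 CPM and KCl 24.9, 18.1 and 18.1 CPM. All N libraries were higher, with log2 differences of 1.05 ± 0.13 (adjusted p = 2.98e-08) and 0.98 ± 0.13 (1.24e-07). For MCCB in the root N held 30.9, 35.0 and 29.9 CPM and KCl 25.2, 24.8 and 22.8 CPM at 90 min, a log2 difference of 0.40 ± 0.10 (0.00476), again without overlap. The 95% interval of MCCB at 90 min ran from 0.19 to 0.60 and that of MCCA from 0.80 to 1.31, and the difference between the subunits was not tested. MCCB was also called at 120 min (0.26 ± 0.10, 0.0439) and at 15 min (0.32 ± 0.10, 0.0191). The 120 min call was lost without root KCl replicate 1 (0.27), 2 (0.24) or 3 (0.28) or N replicate 2 (0.15), with every gene of at least 1 count kept in the fit (adjusted p = 0.0514) and in a fit of these libraries alone (0.0881). The 15 min call was lost without KCl replicate 1 (0.31) or 2 (0.26) or N replicate 2 (0.24), with every gene kept (adjusted p = 0.0542) and in a fit of these libraries alone (0.0550).

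In the shoot the carboxylase genes were lower by less than 1 log2 unit. At 90 min MCCA held 9.55, 11.3 and 14.4 CPM with N and 16.1 and 19.0 CPM with KCl, and MCCB held 20.6, 15.0 and 23.6 CPM with N and 27.9 and 28.9 CPM with KCl. Neither gene overlapped between the groups, with log2 differences of -0.59 ± 0.19 (adjusted p = 0.0131) and -0.53 ± 0.17 (0.0122). MCCB was called at 120 min too, at -0.50 ± 0.15 (0.00860), where MCCA was -0.27 ± 0.17 (0.226). The MCCA call at 90 min was lost without KCl replicate 3 (-0.47) or N replicate 1 (-0.46), and its call at any time without KCl replicate 2 (adjusted p = 0.0720) or 3 (0.0672). The MCCB call was lost at 90 min without KCl replicate 1 (-0.55) or 3 (-0.51) or N replicate 2 (-0.35), and at 120 min without KCl replicate 2 (-0.47) or 3 (-0.42), while its call at any time held in all 6 fits. In fits of the libraries of 90 min alone, MCCA, MCCB and IVD in the shoot were -0.61, -0.55 and -0.48, with adjusted p = 0.0999, 0.1299 and 0.108.

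ETFQO, at the end of the electron path, was called in the shoot and not in the root. In the shoot at 120 min N held 5.56, 6.69 and 4.92 CPM and KCl 9.65, 10.3 and 8.80 CPM, and at 45 min N held 6.63, 5.74 and 3.93 CPM and KCl 8.09, 9.56 and 8.98 CPM. The libraries did not overlap at either time, with log2 differences of -0.75 ± 0.22 (adjusted p = 0.00532) and -0.71 ± 0.22 (0.0142). In the root at 120 min N held 24.1, 25.9 and 23.8 CPM and KCl 27.0, 24.4 and 20.4 CPM, overlapping, with a log2 difference of 0.04 and a 95% interval from -0.20 to 0.27. The root test at any time gave an adjusted p of 0.333. The shoot call at 45 min was lost without KCl replicate 2 (-0.65) or N replicate 3 (-0.51), and the shoot call at any time without KCl replicate 1 (adjusted p = 0.0788) or 2 (0.0601).

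**Figure D3:**
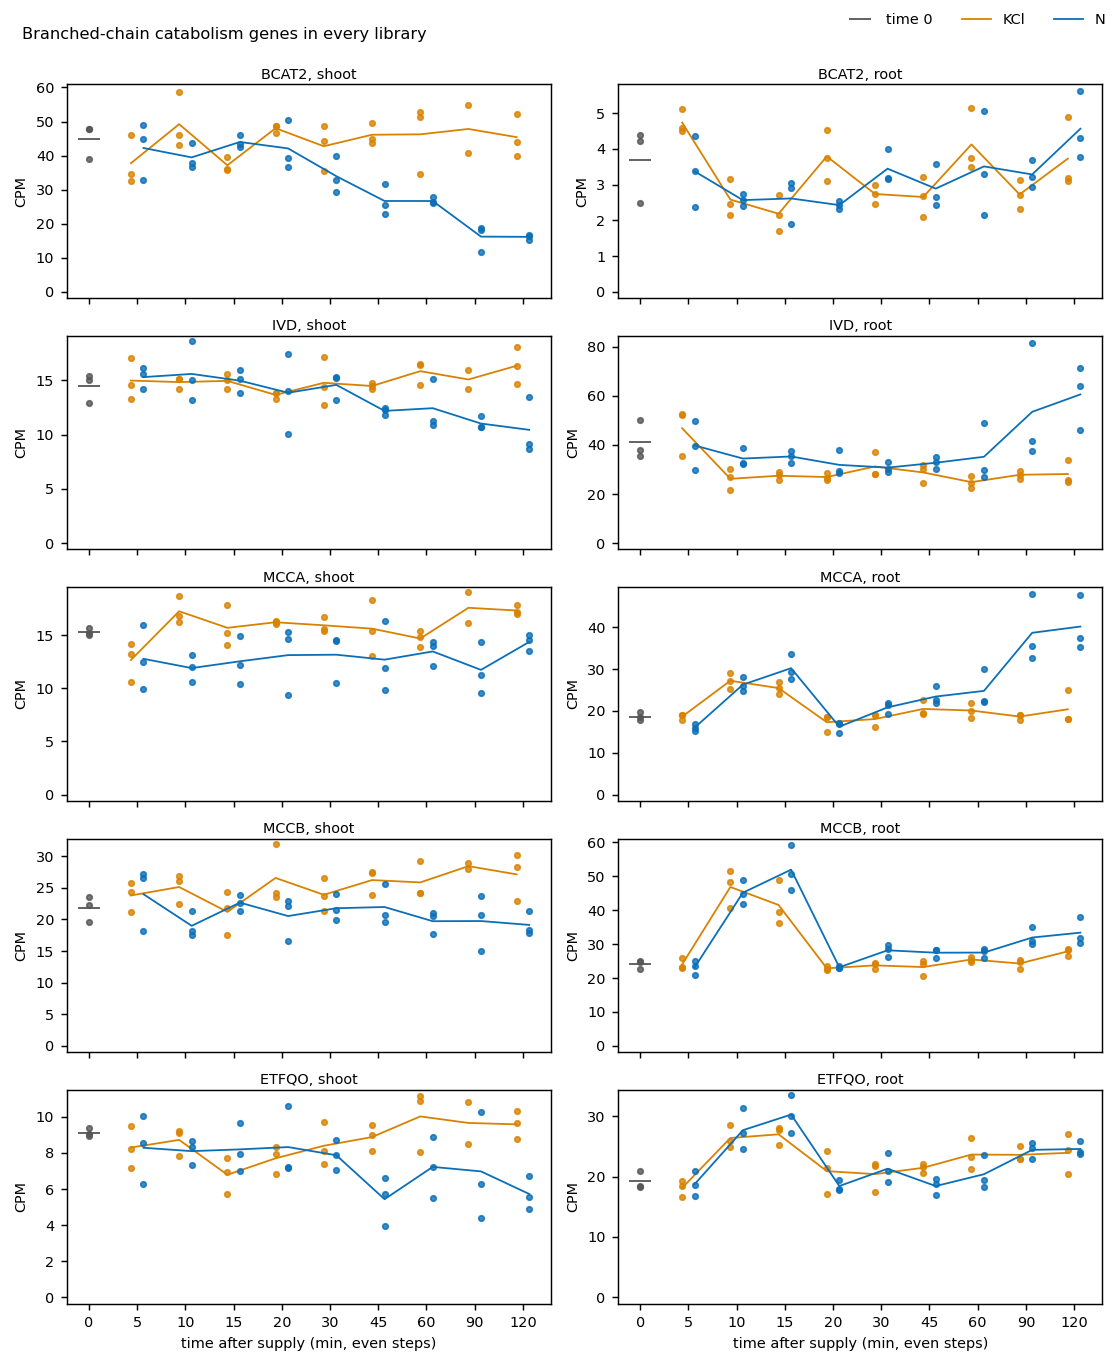
CPM of the 5 branched-chain catabolism genes in every library against time after supply in min (even steps, not to scale), shoot on the left and root on the right, for time 0 (grey), KCl (orange) and N (blue), with lines through the group means. BCAT2 in the shoot lies between 15.3 and 16.8 CPM with N and between 40.0 and 52.4 CPM with KCl at 120 min.

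ETFQO overlaps FPA (AT2G43410), which lies on the opposite strand and encodes a regulator of RNA 3′ end formation and flowering. The strand setting of the counting is not given in the sources used here, so reads of the pair may not be told apart. FPA had a mean of 114 CPM in the shoot and 86.3 CPM in the root, against 8.04 and 22.6 CPM for ETFQO. In the shoot FPA was higher with N by a log2 difference of 0.95 at 90 min and 1.00 at 120 min, opposite in direction to ETFQO. DIN10, BCAT2 and MCCA also overlap genes on the opposite strand. DIN10 overlaps AT5G20260, with a mean of 0.306 CPM in the root against 81.4 CPM for DIN10, and it was higher with N there at 90 min by a log2 difference of 2.30. BCAT2 overlaps AT1G10090, at 15.6 CPM in the shoot, which fell by 0.56 at 90 min and by 0.43 at 120 min on the log2 scale there. In the root AT1G10090 was at 14.4 CPM, against 3.25 CPM for BCAT2, and fell by 0.75 at 120 min. MCCA overlaps AT1G03100, at 2.65 CPM in the root, and AT1G04157, which was not tested here.

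The difference between the organs was tested in a fit of all libraries, as the N effect in the shoot minus that in the root. All 8 genes passed at any time, with the shoot effect lower in each, against 36% of all genes called and 15.3% with a lower shoot effect. At 90 min 7 genes passed, the exception being ETFQO, and at 120 min 7 passed, the exception being DIN2, when 5.61% and 6.6% of all genes were called with a lower shoot effect. At 60 min 4 passed (DIN1, DIN2, DIN10 and IVD), at 45 min 3 (DIN1, DIN2 and DIN10) and at 15 min 1 (MCCA), against 2.62%, 1.44% and 4.69% of all genes with a lower shoot effect. Fits that left out a replicate tested this difference at 90 and 120 min and at any time. They did not cover the calls at 15, 45 and 60 min.

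DIN1 had the largest organ difference, -6.58 ± 1.07 log2 units at 90 min (adjusted p = 4.36e-06) and -5.46 ± 0.92 at 120 min (4.86e-06). For DIN10 the difference was -4.13 ± 0.51 at 90 min (5.41e-09) and -2.88 ± 0.49 at 120 min (5.67e-06). DIN2 had -4.80 ± 1.02 at 90 min (0.000401), which became -2.00 (0.327) without shoot KCl replicate 1, and -1.28 ± 0.95 at 120 min (0.403), with a 95% interval that includes 0.

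Among the branched-chain genes, BCAT2 had -1.82 ± 0.32 at 90 min (adjusted p = 2.28e-05) and -1.77 ± 0.30 at 120 min (5.00e-06), MCCA -1.63 ± 0.22 (1.04e-07) and -1.25 ± 0.21 (5.64e-06), IVD -1.37 ± 0.28 (0.000259) and -1.76 ± 0.27 (5.08e-07), and MCCB -0.91 ± 0.19 (0.000329) and -0.76 ± 0.18 (0.00124). ETFQO had -0.54 ± 0.25 at 90 min (0.155) and -0.79 ± 0.24 at 120 min (0.0136). Its call at 120 min was lost without root KCl replicate 3 (-0.68, 0.0584) and its call at any time without root KCl replicate 3 (adjusted p = 0.136), root N replicate 1 (0.0553), shoot KCl replicate 1 (0.0532) or shoot KCl replicate 2 (0.0579). The MCCA difference at 15 min was -0.61 (0.0474) and was lost with the nearly empty library kept (-0.57) and with every gene of at least 1 count (-0.60). It was not tested with a replicate left out.

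**Figure D4:**
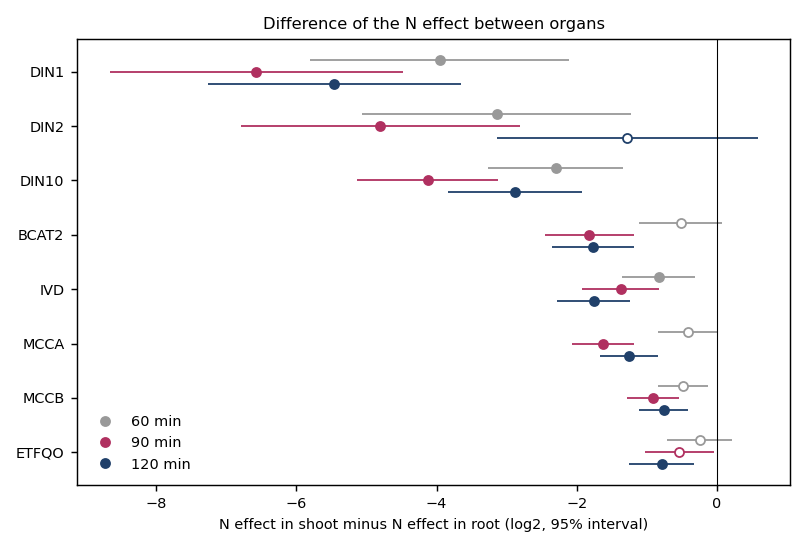
Difference of the N effect between the organs (shoot minus root, log2) for each of the 8 genes at 60, 90 and 120 min, with 95% intervals, and filled points where the adjusted p was under 0.05. All 24 points lie below 0, and DIN1 at 90 min lies farthest, at -6.58.

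Some genes were called in opposite directions at the same time, which asks more than a difference. At 60 min DIN1 was called lower in the shoot and higher in the root, at 90 min DIN1, DIN2, MCCA, MCCB and IVD were, and at 120 min DIN1, MCCB and IVD were. The 90 min count rested on few shoot KCl libraries: without KCl replicate 3 the shoot calls of DIN1, MCCA, MCCB and IVD at 90 min were lost, without KCl replicate 1 those of DIN2 (0.38), MCCB and IVD, and in a fit of the 90 min libraries alone those of DIN2, MCCA, MCCB and IVD. At 120 min the shoot call of MCCB was lost without KCl replicate 2 or 3 and that of DIN1 without N replicate 3. On the root side, the MCCB call at 120 min was lost in 7 alternative settings, 4 of them fits that left out a replicate. The root IVD call at 90 min was lost without root N replicate 2. DIN1 at 60 min lost its call in 3 of 6 fits that left out a replicate in each organ. Of the 20301 genes tested in both organs, 0.251%, 0.394% and 0.734% were called lower in the shoot and higher in the root at 60, 90 and 120 min. BCAT2 and ETFQO differed between the organs through a shoot fall without a called root change, and DIN10 at 90 and 120 min through a root rise without a called shoot change. Of the 10 shoot markers, 3 were called lower at any time in the shoot and 2 in the root. Of the root markers, 2 of 8 tested were called higher in the shoot, and 8 of 10 were called in the root (3 higher, 5 lower). Of all genes, 47.4% were called at any time in the shoot, 23.7% of them all being lower, and 61% in the root, 29.3% being higher. In the shoot at 90 min the summed root markers were 79.9 to 97.3 CPM with N and 51.8 to 73.8 CPM with KCl, and at 120 min 71.4 to 78.7 and 62.1 to 69.8 CPM, with SCR the main share of them and RHD6, EXPA7, TIP2;3 and WOX5 at 0 in 12, 11, 18 and 6 of 56 shoot libraries. In the root the summed shoot markers were 80.1 to 129 CPM with N and 72.1 to 144 CPM with KCl at 90 min, and 77.7 to 112 and 94.6 to 212 CPM at 120 min, with no marker at 0. The part of these levels in the results above was not tested.

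The control course shows what these genes did without N. In the shoot, KCl differed from time 0 in none of the 8 genes at any time with edgeR (1 at an unadjusted p under 0.05 and 1 with DESeq2, DIN2 in both cases, and DESeq2 called DIN10 at 5 min alone), against 8.75% of all genes. In the root 7 of 8 differed at any time (4 higher and 3 lower), against 89.3% of all genes called, 41% higher and 48.3% lower. At 10 and 15 min MCCA, MCCB and ETFQO were called higher and IVD lower. MCCB for example held 51.5, 40.7 and 48.2 CPM in KCl and 41.9, 48.7 and 44.8 CPM in N at 10 min, against 25.0, 22.5 and 24.7 CPM at time 0. Without those libraries 3 of 8 passed (BCAT2, IVD and ETFQO), while the counts of N against KCl in the root and of the organ difference stayed at 6 and 8 genes. The root IVD level was 38.0, 50.3 and 35.7 CPM at time 0 and 27.5, 24.7 and 22.4 CPM in KCl at 60 min, a log2 difference of -0.73 ± 0.21 (adjusted p = 0.00530, when 42.4% of all genes were called), so the N libraries of 120 min (46.2 to 71.3 CPM) overlap those of time 0. For DIN10 and MCCA, by contrast, all 3 root N libraries of 120 min lay above all 3 of time 0.

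Related genes were counted in lists that were chosen with earlier results of these data known. Of the other dark-inducible genes, 4 of 5 were tested. In the shoot 3 passed at any time (1 higher, 2 lower) and in the root 4 (2 higher, 2 lower), where 47.4% and 61% of all genes passed. In the root 2 were called higher and 0 lower at 90 and at 120 min, with list medians of 1.05 and 0.96. Of all genes, 8.27% and 18.6% were called higher there at these times. In the shoot 1 was called higher and 3 lower at 90 min, and 1 higher and 1 lower at 120 min. Of all genes, 18.6% and 17.8% were called lower there at these times. DIN3, the E2 subunit of the branched-chain 2-oxoacid dehydrogenase that acts between BCAT and IVD, was -0.76 ± 0.13 in the shoot at 90 min (adjusted p = 6.54e-06) and 1.75 ± 0.24 in the root at 120 min (2.08e-07), the same directions as IVD. ASN1 (DIN6), an asparagine synthetase, rose in both organs, by 6.06 ± 0.98 in the shoot at 120 min and 5.79 ± 0.61 in the root at 90 min. DIN9, a mannose-6-phosphate isomerase, was lower at 45 min in the shoot (-1.57 ± 0.45) and at 15 min in the root (-1.59 ± 0.32). DIN4, the E1 beta subunit of that dehydrogenase, passed at any time in the root with its smallest p at 5 min (-0.60 ± 0.20, not called at that time alone).

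Of 17 other branched-chain catabolism genes, 10 passed in the shoot (2 higher, 8 lower) and 12 in the root (8 higher, 4 lower, and 7 called without root N replicate 1), against 47.4% and 61% of all genes. At 90 min 9 were called lower in the shoot and 1 higher, when 18.6% of all genes were called lower there. In the root 2 were called higher and 1 lower at 90 min, when 8.27% of all genes were called higher. Median log2 differences at 90 min were -0.33 in the shoot and 0.10 in the root over the list, and -0.00463 and -0.0117 over all genes. At 120 min 8 were called lower and 2 higher in the shoot, when 17.8% of all genes were called lower. In the root 2 were called higher and 3 lower at 120 min, when 18.6% of all genes were called higher. The E1 alpha subunit genes AT1G21400 and AT5G09300 fell in the shoot, with log2 differences of -1.66 ± 0.15 at 120 min and -1.43 ± 0.16 at 90 min, as did the ETF beta subunit gene ETFBETA, with -0.90 ± 0.10 at 120 min. AT5G09300 fell in the root too, with -0.88 ± 0.18 at 120 min, where DIN3 of the same complex rose. D2HGDH, a dehydrogenase that also passes electrons to ETF, was lower in the root at 10 min (-1.64 ± 0.26). BCAT6 rose in both organs, by 2.63 ± 0.31 in the shoot at 90 min and 0.94 ± 0.18 in the root at 45 min.

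Of 13 branched-chain synthesis genes, 10 passed in the shoot (8 higher, 2 lower) and 9 in the root (7 higher, 2 lower, and 5 called without root N replicate 2), against 47.4% and 61% of all genes. KARI, the acetohydroxyacid reductoisomerase, rose by 2.19 ± 0.11 in the shoot at 120 min and 1.29 ± 0.11 in the root at 90 min. In the shoot at 120 min OMR1, a threonine deaminase, rose by 0.93 ± 0.13, VAT1, a regulatory subunit of acetohydroxyacid synthase, by 1.27 ± 0.19 and IMD3, an isopropylmalate dehydrogenase, by 0.74 ± 0.11. In the root AT2G31810, another regulatory subunit of that synthase, rose by 1.66 ± 0.14 at 90 min, VAT1 by 0.89 ± 0.17 at 120 min and IMD2, another isopropylmalate dehydrogenase, by 0.54 ± 0.11 at 15 min.

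Of 10 other amino acid catabolism genes, 6 passed in the shoot, all lower, and 9 in the root (4 higher, 5 lower), against 47.4% and 61% of all genes. ERD5 (proline dehydrogenase) was -1.78 ± 0.19 at 120 min in the shoot, LKR (of lysine breakdown) -2.12 ± 0.34 at 90 min, ETHE1 (a sulfur dioxygenase) -1.36 ± 0.17 at 90 min and HGO (homogentisate dioxygenase of tyrosine breakdown) -1.49 ± 0.19 at 90 min. In the root LKR (-0.94 ± 0.16) and FAH (fumarylacetoacetase, -0.74 ± 0.13) fell at 120 min, whereas the glutamate dehydrogenases GDH1 (1.15 ± 0.13) and GDH2 (2.14 ± 0.18) rose.

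Of 13 other low-sugar marker genes, all 13 passed in the root (11 higher, 2 lower) and 11 in the shoot (4 higher, 7 lower), against 61% and 47.4% of all genes. The median log2 difference over the list was 1.72 in the root and -0.25 in the shoot at 90 min, and 1.61 and 0.20 at 120 min, so the shoot median changed sign, with 3 genes called higher and 3 lower there at each of these times. Of all 20899 genes tested in the shoot, 3920 were called higher and 18.6% lower at 90 min, and 3988 higher and 17.8% lower at 120 min. SEN5 (3.49 ± 0.35 at 120 min), MIOX2 (an inositol oxygenase, 2.64 ± 0.21 at 120 min) and the trehalose phosphate synthase family genes TPS9 (2.45 ± 0.21 at 90 min) and TPS10 (1.72 ± 0.19 at 90 min) rose in the root. In the shoot TPS9 and TPS10 rose too (1.39 ± 0.21 and 1.58 ± 0.17 at 120 min), while DRM1 (-1.87 ± 0.22 at 120 min) and KFB50 (-2.55 ± 0.33 at 45 min) fell.

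**Figure D5:**
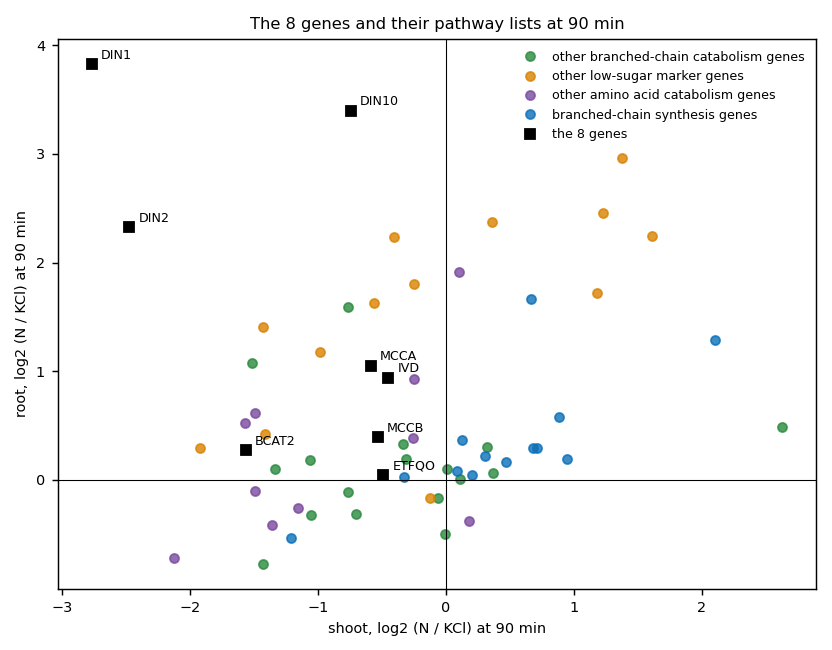
Log2 difference of N minus KCl at 90 min in the shoot (x axis) and the root (y axis) for the 8 genes (black squares) and 4 lists of related genes (coloured points). All 8 squares lie left of 0 and above 0, although BCAT2 and ETFQO were not called in the root.

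Of 11 SnRK1 and bZIP regulator genes, 10 passed in the shoot (4 higher, 6 lower) and 9 in the root (6 higher, 3 lower), against 47.4% and 61% of all genes. KIN10, a catalytic subunit of SnRK1, fell in the shoot (-0.82 ± 0.09 at 120 min), as did BZIP10 (-0.86 ± 0.10 at 90 min) and BZIP9 (-1.02 ± 0.19 at 90 min), the latter also in the root (-0.62 ± 0.15 at 90 min). BZIP63 rose in the root (2.097 ± 0.24 at 120 min), as did BZIP2 (1.56 ± 0.14 at 60 min) and BZIP53 (1.45 ± 0.12 at 120 min), and BZIP53 rose in the shoot (1.14 ± 0.12 at 60 min).

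The profile of each gene, its 18 log2 differences of N minus KCl over 9 times in both organs, was compared by Pearson's r with those of 13803 genes tested in both organs at a mean of at least 5 CPM. These r are descriptions: the 18 points share an organ and control libraries. DIN10 was most like BZIP63, listed as BZO2H3 in the reference (r = 0.942), and AT1G03610 (0.922). MCCA was most like BOR1, a boron exporter (0.948), and DIN3 (0.928), and IVD most like ACR9, an ACT domain protein (0.940), and DIN3 (0.930). DIN1 was most like J8, a DnaJ protein (0.943), and AT1G15670 (0.934), and DIN2 most like GLYI4, a glyoxalase (0.946), and KTI1, a protease inhibitor (0.931). BCAT2 was most like AAE16 (0.907) and AT4G35750 (0.905), MCCB like ATSERAT3;1, a serine acetyltransferase (0.878), and AT3G19990 (0.867), and ETFQO like AT5G19540 (0.922) and AT5G17850 (0.900).

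Among the 8 genes themselves, the profiles within the root resembled one another for DIN1, DIN10, MCCA and IVD, with r from 0.830 to 0.922 over 9 times. DIN2 in the root had r of 0.898 with DIN10, 0.886 with MCCA, 0.761 with DIN1 and 0.684 with IVD. In the shoot BCAT2, IVD, ETFQO and MCCB resembled each other, with r from 0.631 to 0.915. The likeness was not limited to them: DIN1 there had r of 0.881 with ETFQO, 0.710 with BCAT2, 0.610 with IVD and 0.462 with MCCB. DIN10 in the shoot had r of -0.0615 with BCAT2 and -0.208 with IVD. All these points share libraries, and no test was made of them.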

How the data were processed

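RNA sequencing of polyadenylated RNA from shoots and roots gave 1 table of gene counts per library. The counts were deposited by the authors and are not normalized. Second strands held dUTP, per the labels' protocols. Per the submitters' processing notes, TopHat2, HTSeq, limma and the build TAIR10 were used, and the strand setting of the counting is not given in the sources used here. Rows that name no gene were left out of library sizes: reads outside features came to 1.83% to 5.51% in the shoot and 0.916% to 3.75% in the root, ambiguous reads to 2.11% to 2.85% and 0.866% to 2.58%, and reads with several alignments to 0 in the shoot files and 7.05% to 48.6% in the root files. The organs therefore differ in how such reads were recorded.

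Counts were tested with edgeR 4.0.16 in R 4.3.3: genes were kept by filterByExpr (minimum count 10, total 15), scaled by TMM and tested with the quasi-likelihood F-test, with Benjamini-Hochberg adjustment over all genes tested and a threshold of 0.05. Each organ was fitted alone with 1 mean per group, and both organs together for the differences between them. The test at any time takes the 9 times together, with the direction at the time of smallest p. SE is the log2 difference divided by the square root of F, and intervals are 95%. The shoot library with 1302 counts was left out. CPM is the count scaled to the TMM library size, and CPM per kb divides it by the exon length of the RefSeq annotation, matched by gene identifier (28007 of 28712 found). Scripts were tested on simulated data. No pair of libraries of the same organ, treatment and time agreed within sampling noise, and pairs across these groups were not compared.

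The 8 genes and the lists were chosen with earlier results of these data known. From each list up to 4 genes per organ that passed at any time with the smallest p were named, and for each of the 8 genes the 2 genes with the most similar N effects. Tried as alternatives were DESeq2, RLE scaling, no filter on low counts, a fit of the libraries compared alone, the nearly empty library kept, a replicate block, each replicate left out and, added after seeing the data, the root without its 10 and 15 min libraries.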

Additional observations from a re-analysis of the deposited data

Results flagged for a closer look

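For each of the 8 genes the effect of N differed between shoot and root by the edgeR test of the difference itself. Given at the time of smallest p as the shoot effect minus the root effect on the log2 scale, the difference was -6.58 for DIN1, -4.80 for DIN2, -4.13 for DIN10, -1.63 for MCCA and -0.91 for MCCB at 90 min. At 120 min it was -1.77 for BCAT2, -1.76 for IVD and -0.79 for ETFQO. No explanation of these differences was tested.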

How the results depend on the processing

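Leaving out 1 replicate left 4 to 7 of the 8 genes called at any time in the shoot (4 without KCl replicate 2), 6 in the root, 7 to 8 for the organ difference, 6 at time 0 and 5 to 7 for KCl against time 0 in the root. Over the separate times, 13 to 17 calls were made in the shoot and 14 to 18 in the root, against 18 in each with every replicate. DIN2 in the shoot at 90 min ranged from -3.38 without KCl replicate 3 to 0.38, a change of sign, without KCl replicate 1. KCl against time 0 gave 1 gene in the shoot with DESeq2, and 3 in the root without the 10 and 15 min libraries, an alternative chosen after seeing the data. The cause of these changes was not tested, and a fit with a replicate left out also has fewer samples.

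Replicate numbers were not taken to pair the samples. Same-numbered N and KCl libraries had deviations correlated from -0.53 to 0.631 in the shoot and -0.399 to 0.312 in the root. Their medians were -0.0372 and 0.085, against 0.0261 and -0.0214 for libraries of other numbers. Of the same-numbered pairs, 7 of 26 in the shoot and 12 of 27 in the root exceeded 0.1. These correlations cannot exclude a pairing. With a replicate block, 19 calls were made over the shoot times and 16 over the root times, and at any time 8 and 6 genes, with 8 for the organ difference and 7 at time 0. Under the block the root calls of DIN2 at 30 min (adjusted p = 0.0519) and MCCB at 120 min (0.0501) were lost.

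Over all genes, 7798 were called in the shoot at 90 min, but 3998 in a fit of those libraries alone and 4828 without KCl replicate 1. At 45 min in the shoot 5215 were called and 3156 without N replicate 3. In the root 3475 were called at 45 min and 1597 to 2316 without KCl replicate 1 or 2 or N replicate 2 or 3, and at 60 min 5995 against 3962 without KCl replicate 3, 3003 without N replicate 3 and 3126 in a fit of those libraries alone. For KCl against time 0 in the shoot 1828 were called, 3087 with DESeq2 and 742, 1147 and 813 without KCl replicate 1, 2 and 3. Low counts limit DIN1 in the shoot, and the group of 2 libraries limits the shoot at 90 min.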
